A study of Mus musculus with 4 samples.

Results

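The 9 genes described here encode the glutamine amidotransferases of biosynthesis, enzymes that take the amide nitrogen of glutamine and build it into nucleotides, amino sugars or NAD. They are Cad, Ppat, Pfas, Gmps, Ctps, Ctps2, Gfpt1, Gfpt2 and Nadsyn1. They were chosen by gene symbol, with no measured value in the rule but with earlier results of these data known. All 9 were found among the 31054 features of the count matrices. Of those features, 27136 had at least 1 unique molecular identifier (UMI, one tagged RNA molecule) in the cells that were kept.

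As background, these enzymes share a chemistry: one site frees ammonia from the side chain of glutamine, and the ammonia passes to a second site that adds it to the substrate. Ppat makes the first committed step of purine synthesis, Pfas a later nitrogen step of the same route, and Gmps converts XMP to GMP. Cad opens pyrimidine synthesis, and the CTP synthases Ctps and Ctps2 turn UTP into CTP. Gfpt1 and Gfpt2 open the hexosamine route, which makes UDP-GlcNAc for protein glycosylation, O-GlcNAc marks and hyaluronan, and Nadsyn1 amidates the last precursor of NAD in the routes from nicotinic acid and tryptophan. Glutaminase, the enzyme that BPTES inhibits, uses the same side chain to make glutamate.

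The data were single-cell RNA libraries from the lungs of male C57BL/6 mice, 19 months old when treatment began. One group of 2 libraries came from mice given BPTES, a small-molecule inhibitor of the glutaminase GLS1, for 1 month, and the other group of 2 libraries from mice given DMSO, the vehicle, for the same time. In each library 20000 sorted CD45-negative and 9000 sorted CD45-positive cells of the same tissue were mixed, so the balance of leukocytes and other cells was set by the sort. The labels do not say whether a library held 1 mouse or several, and p-values measure the spread between these libraries only.

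The libraries held 260346570 to 342107092 UMIs, and 14407 to 18860 cells per library were kept, 63895 in all, with medians of 13958 to 15749 UMIs per cell. Pairs of libraries shared 65 to 104 cell barcodes, of the 15349 to 20549 that passed the filters. Xist had 0.0865 to 0.122 CPM (UMIs scaled to a common library total) and the Y-linked Ddx3y 157 to 205, the pattern of male cells, and Ptprc, the gene of CD45, had 503 to 560. Clusters were named from marker genes only, so class names end in "-like". The tested classes were the 18 with at least 50 cells in every library, which held 57297 cells. The interstitial macrophage-like class was mixed: at a finer clustering 44.0% of its cells were interstitial macrophage-like, 35.2% cDC2-like and 20.2% cDC1-like, the last 2 being dendritic cells. The pericyte-like class (218, 211, 166 and 219 cells in BPTES replicates 1 and 2 and DMSO replicates 1 and 2) appeared mixed too. Over all kept cells, and not counted within this class, the finer clustering called 107, 135, 118 and 163 cells pericyte-like. It called 111, 76, 49 and 56 smooth muscle-like, 22 of the latter in a cluster led by Myl7 and Nppa, genes of heart muscle.

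All 9 genes had UMIs in every library. Over all kept cells Gfpt1 had 82422 UMIs, Gfpt2 69428, Gmps 60756, Ctps 54371, Ctps2 51300, Ppat 18319, Cad 7091, Pfas 6694 and Nadsyn1 4395. A UMI here tags the 3′ end of 1 RNA molecule, and values are not divided by gene length. In the per-class tests 7 of the genes passed the filter on low counts in all 18 classes, Cad in 17 and Gfpt2 in 15.

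In the GRCm38 annotation the genes lie on 7 chromosomes. Cad (ENSMUSG00000013629) is at chr5:31054780-31078479 on the plus strand and Ppat (ENSMUSG00000029246) at chr5:76913249-76951578 on the minus strand. Pfas (ENSMUSG00000020899) is at chr11:68985697-69008460 on the minus strand and Gfpt2 (ENSMUSG00000020363) at chr11:49794178-49838613 on the plus strand. Gmps (ENSMUSG00000027823) is at chr3:63976106-64022579 on the plus strand, and Ctps (ENSMUSG00000028633) at chr4:120539868-120570276 on the minus strand. The other CTP synthase gene, Ctps2 (ENSMUSG00000031360), is X-linked, at chrX:162901238-163032508 on the plus strand. Gfpt1 (ENSMUSG00000029992) is at chr6:87042846-87092197 on the plus strand and Nadsyn1 (ENSMUSG00000031090) at chr7:143795584-143822849 on the minus strand. Ppat is head to head with Paics (ENSMUSG00000029247, chr5:76951307-76967509, plus strand), which makes a later enzyme of the same purine route, and the 2 annotated genes share 272 bases at their starts.

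The sequence upstream of 3 nucleotide synthesis genes is shown because Cad and Gmps differed between cycling and resting cells and Ctps varied most among the nucleotide genes between classes. It is the longest stretch without annotated UTR in the 250 bases before the RefSeq start (GRCm38.p6), 5′ to 3′ on the strand of the gene. For Ppat and Paics, whose upstream windows lie in each other's first exons, only the motif matches with 10 bases on each side are shown. Capitals mark a match to 1 of 4 motifs searched on both strands: the E-box CACGTG, the E2F-like GGCGGGAA (TTCCCGCC on the other strand), the NRF1 motif (the stretch in capitals in the Ctps sequence, the same on both strands) and the CCAAT box (CCAAT or ATTGG).
Cad, chr5:31054624-31054779, plus strand: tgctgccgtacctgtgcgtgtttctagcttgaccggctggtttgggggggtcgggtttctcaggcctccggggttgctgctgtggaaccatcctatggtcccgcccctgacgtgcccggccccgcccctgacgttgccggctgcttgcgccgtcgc
Gmps, chr3:63975893-63976105, plus strand: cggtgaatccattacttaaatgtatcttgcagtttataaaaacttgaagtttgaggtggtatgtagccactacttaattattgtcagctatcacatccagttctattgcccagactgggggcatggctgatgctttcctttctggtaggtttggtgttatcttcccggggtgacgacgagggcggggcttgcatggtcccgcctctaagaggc
Ctps, chr4:120570277-120570526, minus strand: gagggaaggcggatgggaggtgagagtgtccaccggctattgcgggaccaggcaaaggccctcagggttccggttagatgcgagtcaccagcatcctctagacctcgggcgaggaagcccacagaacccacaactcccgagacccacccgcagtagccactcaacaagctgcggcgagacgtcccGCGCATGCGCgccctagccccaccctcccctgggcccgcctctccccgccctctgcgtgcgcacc
Ppat, first match, chr5:76951720-76951747, minus strand: aggatcagagGGCGGGAAagggaggtgc
Ppat, other match, chr5:76951611-76951638, minus strand: gtccccaggcTTCCCGCCgcgcaggcgc
Paics, chr5:76951089-76951114, plus strand: cctcggaaagCACGTGgagggacctg

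Of the 9 genes, 8 had a window in the RefSeq promoter table. In the 250 upstream bases Ppat held 2 E2F-like matches, a motif found in 1.85% of all 32817 windows, and Ctps held 1 NRF1 match, found in 0.777%. The E-box of the Paics window is a motif of 6.02% of windows. The CCAAT box, in 33.8% of windows, occurred in the windows of Gfpt1 and Gfpt2 and in 1 of those of Ctps2. Ctps and Ctps2 have more than 1 window each, and the NRF1 match of Ctps lies in 1 of them. Their other windows held none of the 4 motifs. None of the 4 motifs was in the windows of Cad and Gmps. The matches shown do not overlap each other, and a match describes these letters only.

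The first question was where in the lung each gene is expressed. Levels are CPM of the UMIs summed over the cells of a class in 1 library, given as mean ± SD over the 4 libraries, and clusters were made without the 9 genes and the pathway lists. Since classes were made from the same cells, their order is described and not tested. Orders and folds are over the 18 tested classes unless a smaller class is named. Gfpt1 stood highest in non-classical monocyte-like cells and Gfpt2 in adventitial fibroblast-like cells, each at over 4 times the level of the next tested class. Ctps was high in venous endothelial-like and AT2-like cells and lowest in neutrophil-like and classical monocyte-like cells, while Ctps2 was highest in B-like and T-like cells. The purine enzymes Ppat and Gmps, and Cad, were high in NK-like cells, and all 3 were lowest in neutrophil-like cells.

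**Figure D1:**
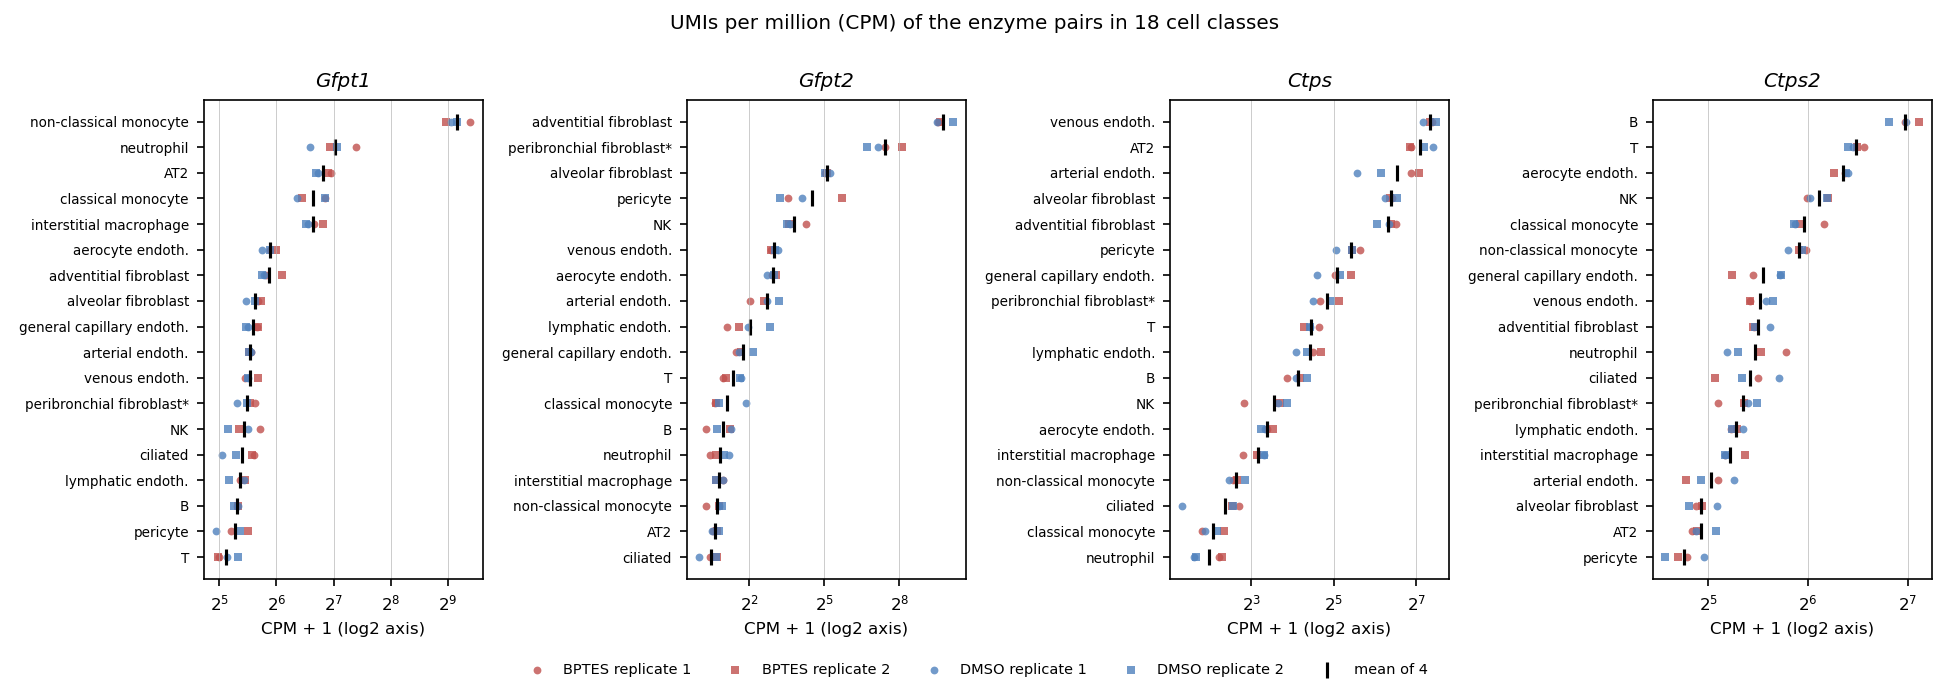
Levels of Gfpt1, Gfpt2, Ctps and Ctps2 in 18 cell classes. The horizontal axis is CPM + 1 on a log2 scale, each point is 1 library (red BPTES, blue DMSO) and each bar the mean of the 4 libraries. Peribronchial fibroblast* stands for the peribronchial fibroblast or myofibroblast-like class. Gfpt1 in non-classical monocyte-like cells (568 CPM) and Gfpt2 in adventitial fibroblast-like cells (854 CPM) lie clear of the other 17 classes.

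Gfpt1, the widely expressed form of the hexosamine enzyme, was highest in non-classical monocyte-like cells, the patrolling monocytes of the vessel wall. BPTES replicates 1 and 2 had 671 and 501 CPM there, and DMSO replicates 1 and 2 had 529.5 and 569.6. Its mean of 568 ± 74.3 (SD, n = 4) was 4.39 times that of the next tested class, neutrophil-like cells (129 ± 30.0), and no library of the other 17 classes reached it. Among classes too small for the tests, mature DC-like cells had 219 ± 50.1 CPM (at least 29 cells per library) and plasma-like cells 155 ± 82.3. AT2-like cells, the surfactant-making epithelium, had 112 ± 10.1 CPM. Classical monocyte-like cells, the circulating relatives of the non-classical ones, had 99.3 ± 17.9 CPM and the interstitial macrophage-like class 99.1 ± 9.55. The remaining classes lay between 58.0 ± 4.23 in aerocyte endothelial-like cells and 33.7 in T-like cells, and neighbours in that range overlapped in most cases. Over all 18 classes the libraries of 14 of 17 neighbouring classes overlapped. The ratio of the highest class to the median class was 12.3, and 34.0% of the 13837 genes with at least 10 CPM in some class had a ratio that large.

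Gfpt2, the form with the narrower expression, had 744 and 792 CPM (BPTES) and 735 and 1144 CPM (DMSO) in adventitial fibroblast-like cells, the fibroblasts of vessel and airway cuffs. The mean of 854 ± 195 was 4.96 times that of peribronchial fibroblast or myofibroblast-like cells, which had 174 and 272 CPM with BPTES and 139 and 104 with DMSO. Alveolar fibroblast-like cells had 33.3 ± 2.39 CPM, and the libraries of these 3 named fibroblast classes did not overlap each other. Cells of unnamed clusters are outside these levels. They include 2849 cells scoring closest to alveolar and 674 closest to adventitial fibroblasts. Of the 69428 UMIs of Gfpt2, 30708 lay in the adventitial, 6319 in the alveolar and 2189 in the peribronchial class. Much of the rest lay in unnamed clusters, whose levels are not given here. Folds and gaps between classes hold for the named classes only. Pericyte-like cells had 10.8 and 51.5 CPM with BPTES and 16.3 and 8.25 with DMSO, with BPTES replicate 2 far above the rest. NK-like cells were the leukocytes with the most, at 12.9 ± 3.67 CPM. In the B-like, T-like, both monocyte-like, neutrophil-like and interstitial macrophage-like classes the means were 0.623 to 1.57 CPM, and in AT2-like and ciliated-like cells 0.563 and 0.392. RNA freed from other cells can give a few UMIs in droplets, and its part in these low values was not tested. The ratio of the highest to the median class was 316, reached by 9.37% of the 13837 genes. The mesothelial-like class, too small for the tests with as few as 3 cells in a library, had 582, 343, 334 and 521 CPM.

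The share of the pair's UMIs that came from Gfpt2 differed widely between classes. Gfpt2 gave 93.5% ± 1.48 (SD, n = 4) of the UMIs of Gfpt1 and Gfpt2 in adventitial fibroblast-like cells, 78.1% ± 6.29 in peribronchial fibroblast or myofibroblast-like cells and 40.8% ± 3.39 in alveolar fibroblast-like cells. In non-classical monocyte-like cells the share was 0.115% ± 0.0577, from 21 UMIs of Gfpt2 beside 19875 of Gfpt1. These shares depend on how well each 3′ end is captured and are compared only between classes.

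Of 26 other genes of the hexosamine route and of hyaluronan and glycan synthesis, 7 were highest in adventitial fibroblast-like cells. They were 3 of 14 hexosamine genes and 4 of 12 hyaluronan and glycan genes that reached 10 CPM in a class. Over all genes, 3.82% have their highest class there. Both lists were chosen with earlier results of these data known, so these shares describe the lists and test nothing. The 12 are users of UDP-GlcNAc except Ugdh. Aerocyte endothelial-like cells were highest for 1 and 3 genes of these lists, against 7.15% of all genes. The 7 genes, named after their values were seen, include Uap1, which makes UDP-GlcNAc, at 276 ± 64.4 CPM against a median of 40.9 over the classes. The hyaluronan synthase gene Has1 had 532 ± 179 CPM against a median of 0.741, and its relative Has2 had 26.3 ± 8.83. Ugdh, whose product UDP-glucuronate is the other building block of hyaluronan, had 336 ± 55.5 CPM against 23.5. None of the 26 genes was highest in non-classical monocyte-like cells except Ext1, a heparan sulphate polymerase, at 819 ± 43.2 CPM against 259.

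Ctps, the CTP synthase that dividing lymphocytes are known to need, was highest in venous endothelial-like cells, with 165, 160, 142 and 178 CPM in BPTES replicates 1 and 2 and DMSO replicates 1 and 2. The mean was 161 ± 14.8. AT2-like cells followed with 136 ± 26.2 CPM, and the libraries of the 2 classes overlapped. AT1-like cells, a class too small for the tests (at least 30 cells per library), had 103 ± 19.0 CPM. Arterial endothelial-like cells had 91.6 ± 40.4, alveolar fibroblast-like cells 83.0 ± 7.09 and adventitial fibroblast-like cells 79.2 ± 10.5. The endothelial classes were far apart: general capillary endothelial-like cells, the most numerous class, had 32.9 ± 7.71 CPM, lymphatic cells 20.4 ± 3.75 and aerocytes, the capillary cells that lie over the air spaces, 9.37 ± 0.877. T-like cells had 20.8 ± 2.29 CPM, near the median of the classes (20.6), and B-like cells 16.5 ± 2.39. Ciliated-like cells had 4.16 ± 1.80 CPM, classical monocyte-like cells 3.19 ± 0.737 and neutrophil-like cells 2.95 ± 0.963. The highest mean was 54.7 times the lowest.

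Ctps2 ran from 125 ± 10.8 CPM in B-like cells to 26.0 ± 3.04 in pericyte-like cells, a 4.79-fold range. B-like cells had 125 and 138 CPM with BPTES and 125 and 111 with DMSO, above every library of T-like cells (88.3 ± 4.28). Aerocyte endothelial-like cells had 80.9 ± 3.42, NK-like cells 67.9 ± 5.28, and classical and non-classical monocyte-like cells 61.1 ± 6.31 and 59.0 ± 3.17. The lowest 4 classes, pericyte-like, AT2-like, alveolar fibroblast-like and arterial endothelial-like, overlapped at 26.0 to 31.6 CPM. Of the 2 CTP synthase genes, Ctps2 gave 18.0% ± 2.50 of the UMIs in AT2-like cells, 21.8% ± 2.07 in venous endothelial-like cells and 26.3% ± 3.30 in alveolar fibroblast-like cells. It gave 88.3% ± 2.14 in B-like cells, 89.6% ± 1.26 in aerocytes and 93.7% ± 1.20 in neutrophil-like cells. Between the 2 capillary endothelial classes the share was 58.2% ± 9.14 in general capillary cells against 89.6% in aerocytes, and their libraries did not overlap.

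**Figure D2:**
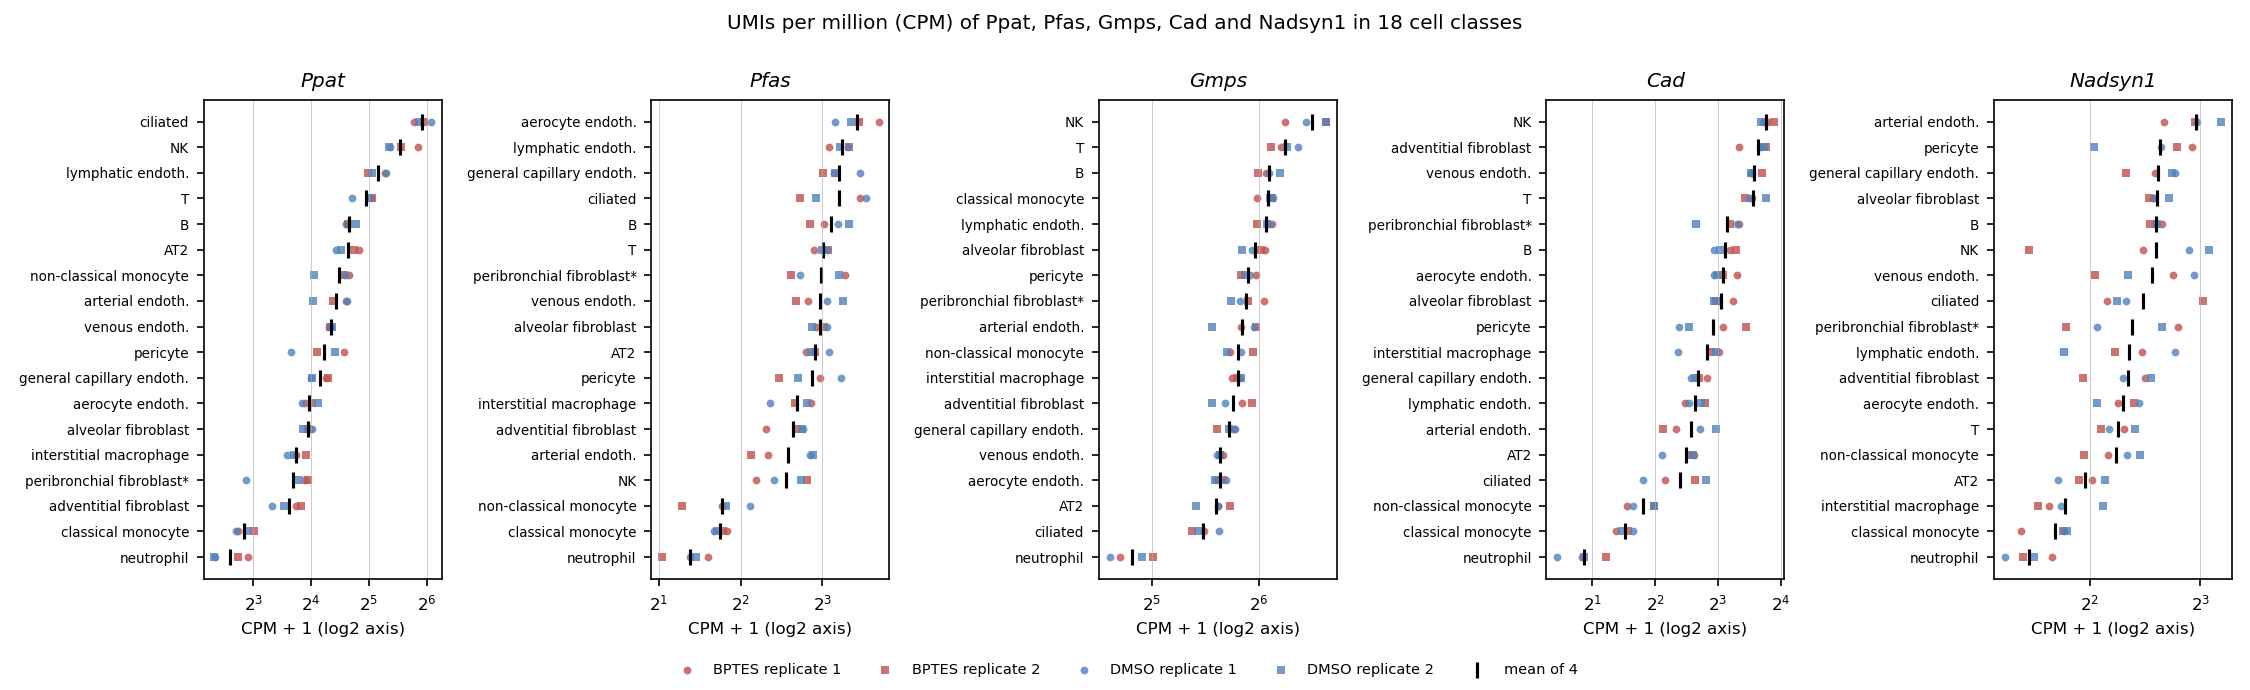
Levels of Ppat, Pfas, Gmps, Cad and Nadsyn1 in 18 cell classes. The horizontal axis is CPM + 1 on a log2 scale, points are libraries (red BPTES, blue DMSO) and bars means of the 4. Ppat, Pfas, Gmps, Cad and Nadsyn1 are all lowest in neutrophil-like cells, and the highest 2 classes of each gene overlap.

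Ppat, the amidotransferase that commits ribose phosphate to purines, was highest in ciliated-like cells, with 53.7 and 61.3 CPM (BPTES) and 66.5 and 57.1 CPM (DMSO). NK-like cells followed at 45.7 ± 8.08 CPM, within reach of the ciliated libraries. Lymphatic endothelial-like cells had 34.8 ± 3.73 CPM and T-like cells 30.0 ± 3.33. Classical monocyte-like cells had 6.15 ± 0.725 and neutrophil-like cells 5.04 ± 1.23, an 11.8-fold range from top to bottom. Gmps, which makes GMP, was flatter: 88.8 ± 10.9 CPM in NK-like cells, 74.5 ± 5.64 in T-like cells, 67.1 ± 3.97 in B-like cells and 66.9 ± 3.22 in classical monocyte-like cells. In neutrophil-like cells it had 27.2 ± 3.59 CPM, and in 16 of 17 cases neighbouring classes overlapped.

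Pfas, the formylglycinamidine synthase of the purine route, was low throughout. It had 9.74 ± 1.66 CPM in aerocyte endothelial-like cells, 8.44 ± 0.717 in lymphatic and 8.21 ± 1.25 in general capillary endothelial-like cells, and most other classes lay between 4.89 and 8.19. Non-classical and classical monocyte-like cells had 2.43 ± 0.779 and 2.37 ± 0.167 CPM and neutrophil-like cells 1.61 ± 0.415. The Cad gene, for the protein with carbamoyl phosphate synthetase, aspartate transcarbamylase and dihydroorotase activity, had 12.6 ± 0.867 CPM in NK-like cells, 11.4 ± 1.62 in adventitial fibroblast-like cells, 10.9 ± 0.753 in venous endothelial-like cells and 10.8 ± 1.21 in T-like cells, all overlapping. It had 1.87 ± 0.228 CPM in classical monocyte-like cells and 0.827 ± 0.401 in neutrophil-like cells, the latter from 34 UMIs. Nadsyn1 ran from 6.76 ± 1.12 CPM in arterial endothelial-like cells to 1.74 ± 0.343 in neutrophil-like cells, and all 17 neighbouring pairs overlapped.

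For each gene that reached 10 CPM in a class, up to 3 of the genes most alike over the 18 class means are given by Pearson's r of log2(CPM + 1), as a description over points that share libraries and depth. Gfpt2 ran closest to Gli1 (r = 0.94), Cpxm1 (0.93) and Chrd (0.93), and Gfpt1 to Ly6i (0.93), Cd300ld3 (0.92) and Gm48614 (0.91). Ctps was closest to Bmp4 (0.88), Hykk (0.87) and Zhx3 (0.86), and Ctps2 to Ifi214 (0.85), Donson (0.84) and Shisa5 (0.83). Gmps was closest to Bccip (0.91), Rsl1d1 (0.88) and Hpf1 (0.88). Ppat was close to Slc25a36 (0.87) and Ubap2 (0.86), and Cad was closest to Tshz1 (0.93), Mtrr (0.90) and Zmynd19 (0.89). Pfas and Nadsyn1 reached 10 CPM in no class.

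The second question was whether dividing cells differ from resting ones. A cell counted as cycling with a UMI of at least 5 of 20 genes of the late cell cycle and as resting with none. BPTES replicates 1 and 2 held 85 and 76 such cells, and DMSO replicates 1 and 2 held 47 and 80, which is 0.326% to 0.561% of cells. Of the 288, 81 were interstitial macrophage-like, 72 T-like, 35 general capillary endothelial-like and 25 alveolar macrophage-like. Within each library, cycling cells of a class were set against up to 5 resting cells each of the same class. Where a class had few resting cells fewer were drawn, so the class mix of the 2 sums was not equal. In BPTES replicate 1, 10 cycling alveolar macrophage-like cells had 21 resting ones and 7 cycling plasma-like cells had 6. The part of this in the results was not tested. Cycling cells were deeper, with medians over all classes of 34526 to 42024 UMIs against 14597 to 16819. The gap was wider in some classes. Alveolar macrophage-like cells had medians of 34767.5 against 2522 UMIs in BPTES replicate 1 and 41528 against 31384 in BPTES replicate 2. In DMSO replicates 1 and 2 they had 48791 against 2779 and 35570 against 12666. Removing 2 times as many doublets took a larger share of cycling T-like cells than of all T-like cells. In the order of libraries above, cycling T-like cells fell from 14, 17, 16 and 25 to 10, 7, 7 and 8. All T-like cells fell from 988, 1225, 836 and 1247 to 978, 1212, 819 and 1218. The part of doublets in the cycling differences was not tested apart. The check genes Mki67 and Top2a, both part of the definition, had 945 ± 126 and 751 ± 63.0 CPM in the cycling cells.

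Ppat, Pfas and Cad rose about 2-fold in cycling cells, Gmps rose by 1.47 times, and Ctps2 fell. Ctps, Gfpt1, Gfpt2 and Nadsyn1 did not pass the test. The tests were edgeR quasi-likelihood tests with the library as a block and Benjamini-Hochberg adjustment over 12006 genes, of which 18.3% were called higher and 16.3% lower at an adjusted p under 0.05. Of the 9 genes, 4 were higher and 1 lower.

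**Figure D3:**
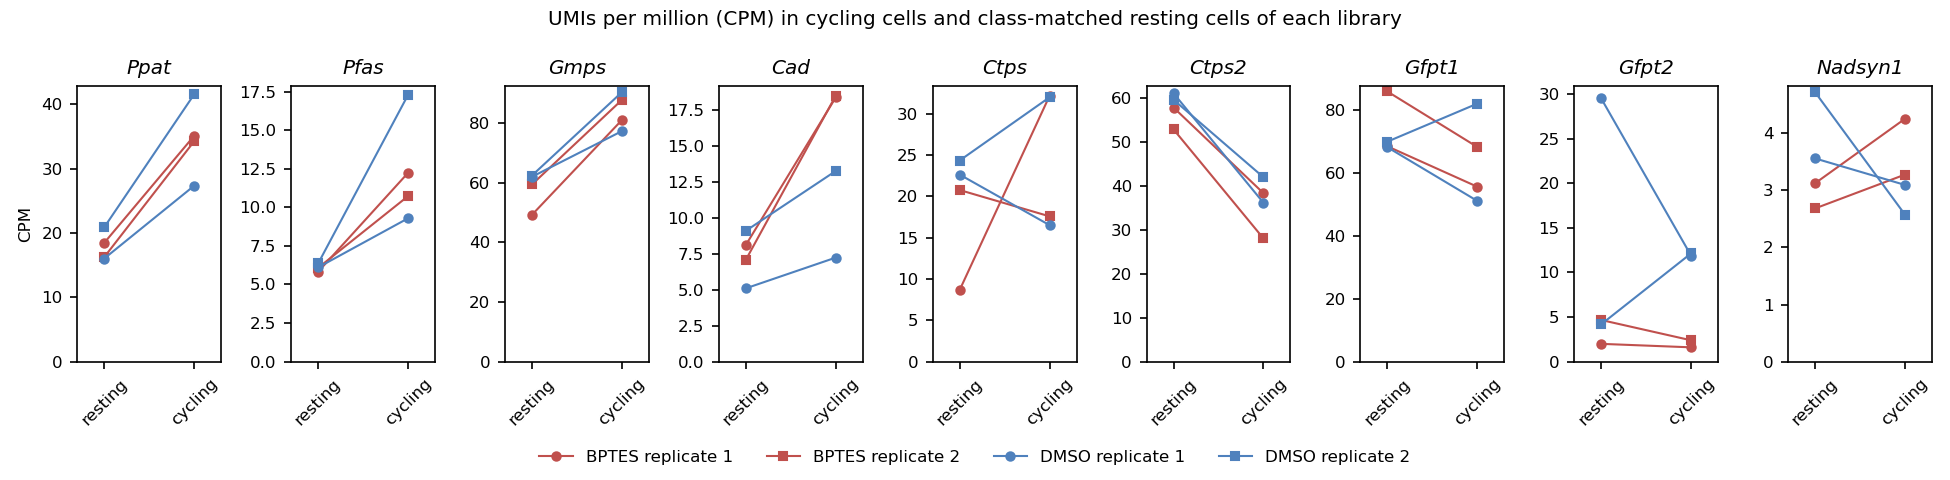
CPM of the 9 genes in resting and cycling cells of each library, on linear axes from 0. Lines join the 2 states of a library (red BPTES, blue DMSO; circles replicate 1, squares replicate 2). Ppat, Pfas, Gmps and Cad rise in 4 of 4 libraries and Ctps2 falls in 4 of 4.

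Ppat had 35.1, 34.3, 27.3 and 41.6 CPM in cycling cells of BPTES replicates 1 and 2 and DMSO replicates 1 and 2, against 18.5, 16.2, 16.0 and 20.9 in resting cells. Every cycling value lay above every resting value, and the log2 fold change was 0.96 (SE 0.116, edgeR adjusted p = 0.000928). Pfas had 12.2, 10.7, 9.29 and 17.3 CPM against 5.82, 6.07, 6.10 and 6.36, again without overlap (log2 1.02, SE 0.207, edgeR adjusted p = 0.00837). For Gmps the values were 81.1, 87.9, 77.4 and 90.5 CPM against 49.3, 59.5, 62.1 and 62.5 (log2 0.55, SE 0.0964, edgeR adjusted p = 0.00454).

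Cad had 18.4, 18.5, 7.22 and 13.2 CPM in cycling cells and 8.10, 7.06, 5.09 and 9.08 in resting cells. It was higher in 4 of 4 libraries, though DMSO replicate 1 in cycling cells lay among the resting values. The log2 fold change was 0.98 (SE 0.219, edgeR adjusted p = 0.0127), and the call was lost without BPTES replicate 1 (adjusted p = 0.0717) or BPTES replicate 2 (adjusted p = 0.0619). Ctps2 had 38.3, 28.0, 36.1 and 41.9 CPM in cycling cells against 57.8, 52.8, 61.0 and 59.6 in resting cells, without overlap. Its log2 fold change was -0.67 (SE 0.105, edgeR adjusted p = 0.00285).

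The other CTP synthase, Ctps, moved both ways, with 32.2, 17.6, 16.5 and 32.0 CPM in cycling cells and 8.66, 20.8, 22.6 and 24.3 in resting cells (log2 0.44, 95% interval -0.41 to 1.29, edgeR adjusted p = 0.381). It was called lower with cycling cells taken at 3 or more genes (log2 -0.37, edgeR adjusted p = 0.0103) and higher at 8 or more (log2 1.15, edgeR adjusted p = 0.0157). Without BPTES replicate 1 its log2 fold change was -0.069. Gfpt1 had 64.2 ± 13.9 CPM against 73.1 ± 8.55 (log2 -0.18, 95% interval -0.46 to 0.10), and without the interstitial macrophage-like class its log2 fold change was 0.24. Gfpt2 had 1.60, 2.38, 11.9 and 12.1 CPM against 1.99, 4.66, 29.5 and 4.18, from 70 and 186 UMIs in all. Its log2 fold change was -0.24 (95% interval -1.38 to 0.89), and 0.29 without DMSO replicate 1. With cycling cells at 3 or more genes it was called lower (log2 -0.66, edgeR adjusted p = 0.0118). Nadsyn1 rested on 40 and 81 UMIs (log2 -0.03, 95% interval -0.81 to 0.75).

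The 5 calls depend in part on how cells are chosen. With cycling cells taken at 3 or more genes, Ppat alone stayed called higher, with Pfas at log2 0.31 (edgeR adjusted p = 0.201), Gmps at 0.22 (0.0693) and Cad at 0.45 (0.154). With cells thinned to 3000 UMIs, which left 131 cycling cells and 29 UMIs of Gmps in them, the log2 fold change was 0.13 for Gmps, -0.16 for Ctps2 and 0.055 for Gfpt1. None of the 3 was called. Ppat, Pfas and Cad did not pass the filter on low counts there, with 19, 7 and 5 UMIs in the cycling cells against 35, 15 and 14 in 655 resting cells, and Paics had a log2 fold change of 0.88 (edgeR adjusted p = 0.0844). Thinning changed both the depth and the cells, and their parts were not tested apart. Against the nearest resting cells Ctps2 had a log2 fold change of -0.32 (edgeR adjusted p = 0.0755). In the interstitial macrophage-like class, which gave the most cycling cells, dendritic cell markers moved with the state: Flt3 was found in 85.2% of its cycling and 38.9% of its resting cells, Xcr1 in 54.3% and 10.5%, and C1qa in 22.2% and 53.2%. Median depth there was 52125 UMIs in cycling and 24064 in resting cells. Their part in the results over all classes was not tested, and without the class Ppat, Pfas, Gmps and Cad were called higher and Ctps2 lower.

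With cycling cells taken at 5 or more genes, no class had 20 of them in every library. T-like cells had at least 10, a limit set after the data were seen. At 3 or more genes T-like cells had 36 to 59 per library and interstitial macrophage-like cells 38 to 84. Fits of single classes with those cells are not given here, and the values below are at 5 or more genes. Cycling T-like cells had 59.1 ± 19.7 CPM of Ppat against 29.6 ± 3.18 in resting ones (SD, n = 4), a log2 fold change of 0.90 (SE 0.182, edgeR adjusted p = 0.00269), higher in 4 of 4 libraries. Gmps had 114 ± 18.8 against 70.7 ± 4.88 CPM (edgeR adjusted p = 0.00671), a call lost without BPTES replicate 2 (adjusted p = 0.0535). Ctps2 fell from 89.5 ± 4.67 to 49.9 ± 10.7 CPM (log2 -0.93, edgeR adjusted p = 0.000611), lower in 4 of 4 libraries. Cad (log2 0.55) and Pfas (0.64) were higher in 3 of 4 libraries and not called, on 43 and 32 UMIs in cycling cells. In this fit 19.5% of 10992 genes were called higher and 17.2% lower.

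**Figure D4:**
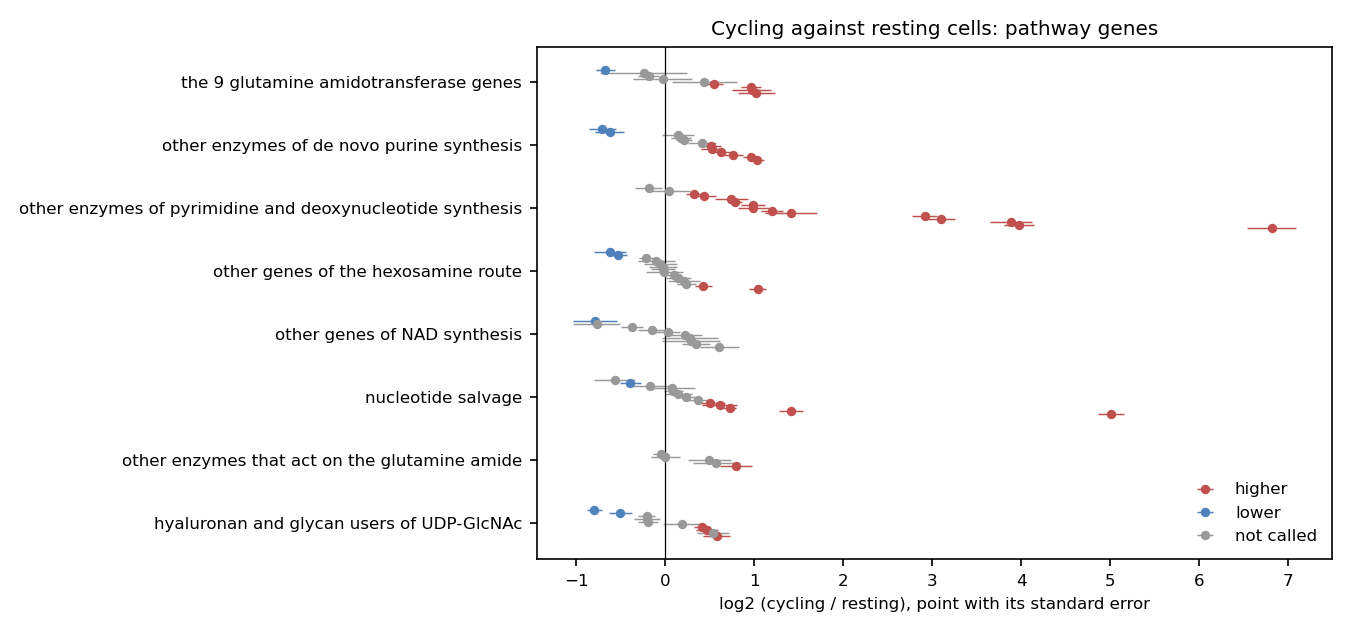
Log2 ratio of cycling to resting cells for the 9 genes and 7 lists of related genes. Each point is a gene with its standard error (red called higher, blue called lower, grey not called). The pyrimidine and deoxynucleotide list holds the largest ratios, up to Rrm2 at 6.81.

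Around these enzymes, most of the pyrimidine and deoxynucleotide genes rose: 13 of 15 tested were higher and 0 lower, where 18.3% and 16.3% of all genes were, with a median log2 fold change of 0.99 against -0.02 over all genes. Among them were Rrm2 and Tyms, for a subunit of ribonucleotide reductase and thymidylate synthase (log2 6.81 and 3.97), and Dut, the dUTPase, had 3.10. Dhodh and Umps, which follow Cad in the pyrimidine route, are named here after their values were seen. Dhodh had 6.88 ± 2.06 CPM in cycling and 6.68 ± 0.696 in resting cells (log2 0.044, edgeR adjusted p = 0.905), and Umps rose from 11.9 ± 1.24 to 23.3 ± 5.12 CPM (edgeR adjusted p = 0.00457). These lists were chosen with earlier results of these data known.

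Of the other 12 purine enzymes, 6 were higher and 2 lower (median 0.46). Paics, the head-to-head partner of Ppat, had 105 ± 9.53 CPM in cycling and 52.1 ± 2.02 in resting cells (log2 1.03, edgeR adjusted p = 0.000175). Impdh2, which makes the XMP that Gmps uses, had a log2 fold change of 0.97, and Atic, the last enzyme before IMP, 0.76. The 2 that fell were Adssl1 (-0.71) and Impdh1 (-0.62), paralogues of enzymes of the AMP and GMP branches. Of 13 salvage genes tested, 5 were higher, led by thymidine kinase Tk1 (5.01) and deoxycytidine kinase Dck (1.41), and 1 lower, Dguok (-0.39).

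Calls in the hexosamine list were near the share over all genes (18.3% higher and 16.3% lower). Of 14 other hexosamine genes 2 were higher, Nans (1.04) and Uap1 (0.43), and 2 lower, Gne (-0.62) and the O-GlcNAc transferase Ogt (-0.53), with a median of -0.02. Hyaluronan and glycan genes had 3 higher and 2 lower of 10, among the lower Mgat5 (-0.79), which branches N-glycans. Of 10 NAD genes 0 were higher and 1 was lower, Nmnat3 (-0.79). Among 5 other enzymes that act on the glutamine amide, 1 was higher, Qrsl1 (0.80), a subunit of the mitochondrial glutaminyl-tRNA amidotransferase.

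The third question was whether 1 month of BPTES changed the 9 genes. In the 18 classes none of the 158 tests of a gene in a class was called by edgeR at an adjusted p under 0.05, and the smallest adjusted p was 0.0679. Over all genes edgeR called 0.145% of 224171 tests. DESeq2 called 3 of the 158, and it also called many more tests over all genes than edgeR did (counts in the closing section). An unadjusted p under 0.05 was found in 22 of the 158 (13.9%), against 12.5% over all genes, and the libraries of the 2 groups did not overlap in 71 (44.9%), against 44.5%. Both shares were near those of all genes. The 95% intervals of the log2 fold changes are for single tests and unadjusted, so an interval clear of 0 was not always a call. Their half-widths describe precision and not the smallest change that would have been called. Over classes the median half-width was 0.24 for Gmps, 0.26 for Ctps2, 0.30 for Gfpt1, 0.38 for Ppat and 0.45 for Ctps. It was 0.64 for Pfas and Cad, 0.76 for Gfpt2 and 0.81 for Nadsyn1.

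**Figure D5:**
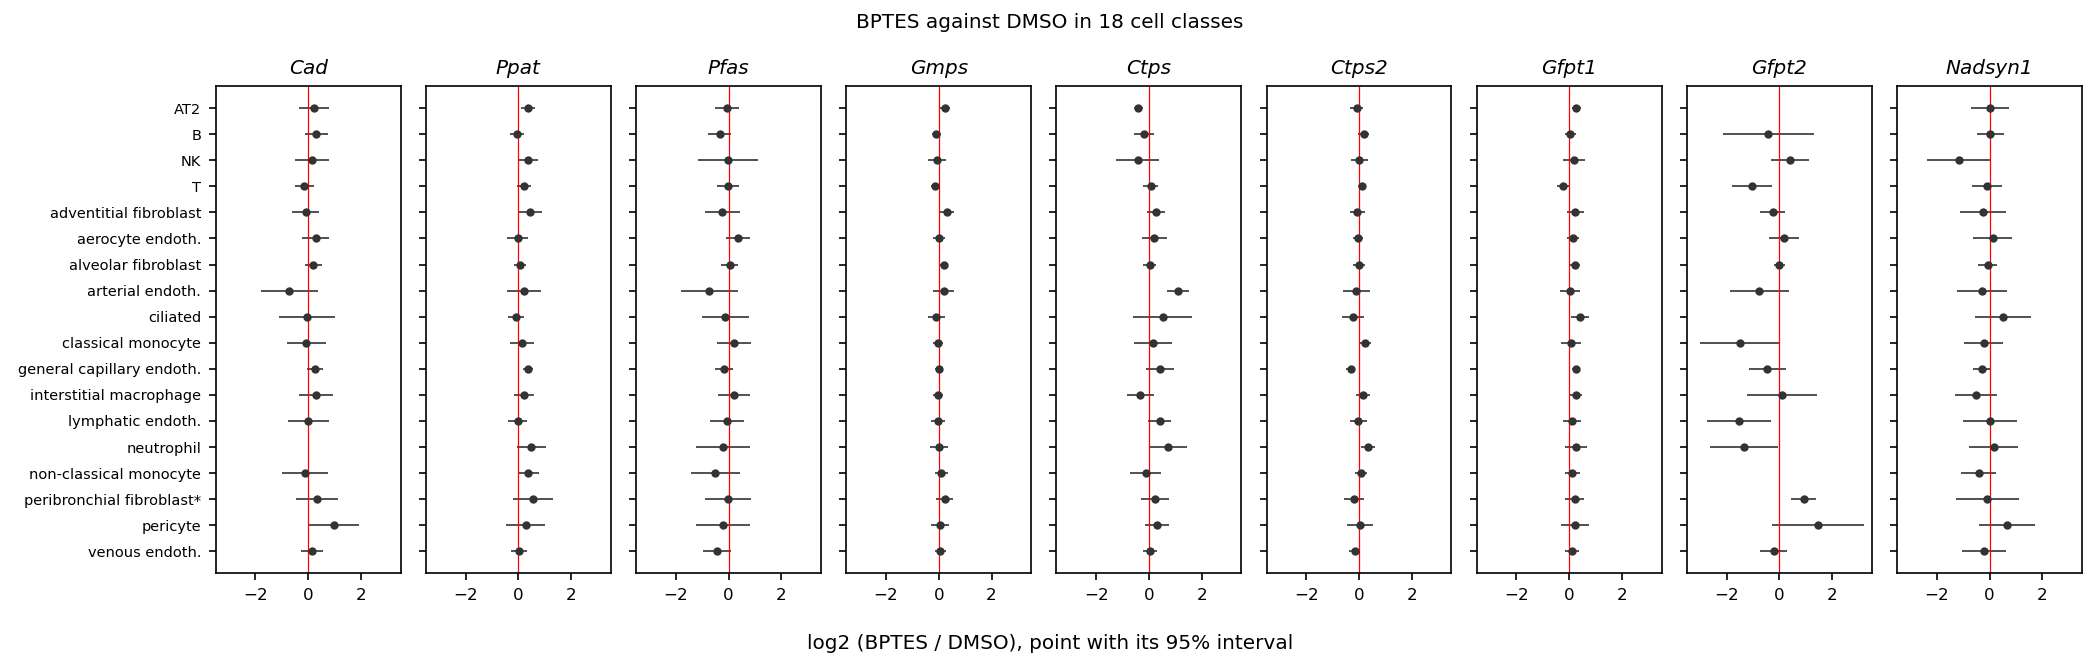
Log2 ratio of BPTES to DMSO for the 9 genes in 18 cell classes, each point with its 95% interval from edgeR. Classes without a point had too few counts, and peribronchial fibroblast* stands for the peribronchial fibroblast or myofibroblast-like class. The Ctps interval in arterial endothelial-like cells (0.69 to 1.54) lies farthest above 0 among the Ctps intervals.

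Ctps in arterial endothelial-like cells had the smallest adjusted p. It had 117 and 133 CPM with BPTES and 46.5 and 69.6 with DMSO, from 116 to 173 cells per library. Both BPTES libraries lay above both DMSO libraries, with a log2 fold change of 1.11 (SE 0.191, edgeR adjusted p = 0.0679). DESeq2 called it (adjusted p = 0.0125), and so did edgeR without BPTES replicate 1 (adjusted p = 0.00648) or DMSO replicate 2 (0.000257), but not without either of the other libraries. Where 1 library is left out, its group holds 1 library, which is assumed to vary like those of the other group. EdgeR also called it with a mitochondrial limit of 5% (adjusted p = 0.0342), with 2 times as many doublets removed (0.0491) and at clustering resolution 0.5 (0.0457), but not at resolution 2 (log2 1.04, adjusted p = 0.0848). The class's own 9 arterial markers summed to 3357 and 3640 CPM with BPTES and 3712 and 3855 with DMSO, so both BPTES libraries were lower. The 8 venous markers summed there to 2475 and 2677 CPM with BPTES and 2865 and 2618 with DMSO, against 6866 in venous cells, and the 10 general capillary markers to 9841 and 9604 against 8982 and 9639. No marker of the 3 lists was at 0. The part of these markers in the Ctps values was not tested.

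In AT2-like cells Ctps went the other way, with 116 and 113 CPM with BPTES and 169 and 145 with DMSO. The log2 fold change was -0.40 (SE 0.0823, edgeR adjusted p = 0.0705). DESeq2 called it (adjusted p = 0.0467), as did edgeR with a mitochondrial limit of 5% (adjusted p = 0.0341). EdgeR did not call it with 2 times as many doublets removed or at clustering resolution 0.5 or 2. Leaving out 1 library gave log2 fold changes of -0.49 to -0.30. In this class 9 AT2 markers summed to 219580 and 214072 CPM with BPTES and 211784 and 219132 with DMSO. The 9 AT1 markers summed to 1979 and 1996 against 1975 and 1866. The part of these markers in the AT2-like values was not tested. In general capillary endothelial-like cells Ctps had 31.9 and 41.9 CPM with BPTES and 23.3 and 34.7 with DMSO, which overlap (log2 0.42, edgeR adjusted p = 0.306). A fit over all 18 classes at once, added after the data were seen, tested whether the BPTES effect on a gene differs between classes. It gave an adjusted p of 0.0271 for Ctps, in a fit that called 6.33% of 17791 genes. In the same edgeR fit the call was lost without the arterial class (adjusted p = 0.228), without BPTES replicate 1 (0.133), without BPTES replicate 2 (0.437) and without DMSO replicate 1 (0.287). Of the others Gfpt2 had an adjusted p of 0.0567 and Ctps2 of 0.151. In the other classes the log2 fold change of Ctps lay between -0.42 and 0.74, and over all 18 it was above 0 in 13.

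The main edgeR fit called neither hexosamine gene in any class. Gfpt1 had a log2 fold change above 0 in 17 of 18 classes, with a median of 0.20, and below 0 in T-like cells (-0.24). Among genes tested in all 18 classes, 3.95% had signs at least as uneven, and the classes share the same 4 libraries. In general capillary endothelial-like cells Gfpt1 had 49.7 and 50.4 CPM with BPTES and 44.5 and 43.3 with DMSO. Its log2 fold change there was 0.26 (edgeR adjusted p = 0.132), and 0.22 to 0.31 leaving out 1 library. In non-classical monocyte-like cells, where it was highest, its libraries overlapped. Gfpt2 was tested in 15 classes and lay below 0 in 10 and above 0 in 5, with a median log2 fold change of -0.26. Gfpt2 in peribronchial fibroblast or myofibroblast-like cells had 174 and 272 CPM with BPTES and 139 and 104 with DMSO (log2 0.92, SE 0.211, edgeR adjusted p = 0.228), and DESeq2 called it (adjusted p = 0.0384). EdgeR called it without BPTES replicate 1 (adjusted p = 0.0122) or DMSO replicate 1 (0.017), fits in which 1 group is a single library whose spread is taken from the other group. The summed level of 9 adventitial fibroblast markers in that class was 2202 and 2698 CPM with BPTES and 2502 and 2010 with DMSO, against 17648 in the adventitial class, and no marker was at 0. In the adventitial class itself Gfpt2 overlapped between the groups. Fits of the same kind called Gfpt2 in pericyte-like cells (without BPTES replicate 1, which leaves the BPTES library at 51.5 CPM, log2 2.23, adjusted p = 0.000308) and in classical monocyte-like cells (without DMSO replicate 2, log2 -2.18, adjusted p = 0.0342). In the pericyte-like class adventitial markers summed to 457 and 489 CPM with BPTES and 484 and 192 with DMSO. The part of these and of smooth muscle-like cells was not tested.

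Among the purine genes, Ppat was above 0 in 14 of 18 classes, and 27.1% of genes tested in all classes had signs as uneven. In general capillary endothelial-like cells it had 18.4 ± 0.332 CPM with BPTES against 15.1 ± 0.0836 (SD, n = 2 per group), without overlap. Its log2 fold change there was 0.36 (edgeR adjusted p = 0.126), and 0.31 to 0.42 leaving out 1 library. In AT2-like cells Ppat had 27.4 and 25.7 CPM against 20.5 and 21.8 (log2 0.36, edgeR adjusted p = 0.181). The log2 fold changes of Gmps lay between -0.14 and 0.30 and those of Pfas between -0.72 and 0.36. Pfas was below 0 in 14 of 18 classes, and 27.1% of genes tested in all classes had signs as uneven. Cad had its largest value in pericyte-like cells (log2 0.98, edgeR adjusted p = 0.595). Smooth muscle-like cells of the finer clustering were more numerous in the BPTES libraries, and their part in this value was not tested. For Ctps2 in general capillary endothelial-like cells the values were 42.5 and 36.8 CPM with BPTES and 51.5 and 52.1 with DMSO. The log2 fold change was -0.32 (edgeR adjusted p = 0.125), and -0.39 to -0.25 leaving out 1 library. In this class the summed level of 10 aerocyte markers was 1079 and 1125 CPM with BPTES and 993 and 1052 with DMSO, and that of 8 venous markers 599 and 471 against 753 and 647. Neither sum overlapped between the groups, which was also so in 44.5% of the tests of single genes. Of the 10 aerocyte markers 6 were above in both BPTES libraries and 1 below. Of the 8 venous markers 2 were below and 1 above. The part of these markers in the values of Ppat, Gfpt1, Ctps and Ctps2 there was not tested. Nadsyn1 ranged from -1.16 in NK-like cells, on 48 UMIs over the 4 libraries, to 0.66.

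Summed over all cells of a library, edgeR called 0 of the 9 genes and 0.00% of 21435 genes, and DESeq2 called 0 of the 9. Ppat was the 1 gene of the 9 with an unadjusted p under 0.05, where 17.3% of all genes had one, at 18.6 and 18.0 CPM with BPTES and 15.9 and 16.5 with DMSO (log2 0.23, edgeR adjusted p = 0.230). In these sums fewer cells of a class and less RNA per cell cannot be told apart. In cycling cells 8 of the genes could be tested and edgeR and DESeq2 called 0, where edgeR called 0.0172% of 11656 genes. There, 2 had an unadjusted p under 0.05, against 9.39% of all genes. Cad had 18.3 and 18.3 CPM with BPTES and 7.22 and 13.1 with DMSO (log2 0.92, edgeR adjusted p = 0.496), and Gfpt2 had 1.59 and 2.36 against 11.9 and 12.0, from 14 and 56 UMIs (log2 -2.48, edgeR adjusted p = 0.274). The class mix of the cycling cells also differed: BPTES replicates 1 and 2 held 31 and 27 interstitial macrophage-like and 7 and 4 plasma-like cells, DMSO replicates 1 and 2 held 14 and 9 and no plasma-like cells. Fibroblast-like cells, which carry Gfpt2, numbered 0 and 2 against 2 and 2. The part of this mix in the Cad and Gfpt2 values was not tested. The cycling difference itself was not shown to differ between BPTES and DMSO for any of the 9: edgeR and DESeq2 called 0, 0 had an unadjusted p under 0.05 (8.96% of all genes did), and edgeR called 0.00% of 12006 genes. For Cad the difference of the log2 fold changes was 0.78 (95% interval -0.04 to 1.61) and for Ppat 0.14 (-0.44 to 0.71).

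In the 7 lists of related genes, 1 of 1385 tests over the 18 classes was called by edgeR, where 0.145% of all tests were. It was Dck in classical monocyte-like cells, a gene of deoxynucleoside salvage (log2 0.60, edgeR adjusted p = 0.0371). Dck had 53.6 ± 4.66 CPM in BPTES libraries against 36.2 ± 2.02 in DMSO libraries (SD, 2 libraries per group). An unadjusted p under 0.05 was found in 11.4% of those tests, against 12.5% over all genes.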

How the data were processed

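The authors deposited raw UMI counts per gene and cell for 4 10x Genomics 3′ libraries; Cell Ranger 8.0.1 and the mm10 build are named in the submitters' processing notes. Cells were kept with at least 500 genes, 1000 UMIs and at most 10% mitochondrial UMIs, and the highest Scrublet doublet scores were removed in each library (0.4% of cells for each 1000 cells). Cells were clustered with scanpy 1.11.5 (2000 variable genes without the 9 genes and the lists, 40 components, 15 neighbours, resolution 1) into 37 clusters, 4 of them unnamed, and named from fixed markers; the naming thresholds were set after the clusters were seen.

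UMIs were summed per library and class, since cells are not replicates. Main tests were edgeR 4.0.16 quasi-likelihood tests in R 4.3.3, with TMM scaling, edgeR's default filter on low counts and Benjamini-Hochberg adjustment over all genes of a fit, called under 0.05; DESeq2 1.42.0 was an alternative, as were the filters, the clustering, the cycling limit, thinning and leaving out each library. A cycling cell took the most common class of its 15 nearest resting cells, and resting cells were drawn at random within library and class. The procedure was tested on simulated counts. All 9 genes were named, with up to 3 genes most alike per gene and at most 4 called genes per list and direction with the largest fold change, some of which are not reported here; members and lists were chosen with earlier results of these data known. The lists were other purine, pyrimidine and deoxynucleotide, hexosamine, NAD, salvage, glutamine amide, and hyaluronan and glycan genes. Gene positions are from GENCODE vM21, and upstream sequences from RefSeq, both on GRCm38. Antisense or overlapping genes such as Ppat and Paics were taken as counted by the authors.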

Additional observations from a re-analysis of the deposited data

Results flagged for a closer look

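A test of the interaction of class and treatment, added after the data were seen, called the effect of BPTES on Ctps different between the 18 cell classes (edgeR adjusted p = 0.0271). It was 1 fit with the library as a block. Ctps had a log2 fold change of 1.11 in arterial endothelial-like cells and -0.40 in AT2-like cells, and the main edgeR fit called neither. The fit treats the class sums of a library as independent once the library is taken into account, and it called 6.33% of all genes. Without the arterial class the edgeR adjusted p was 0.228. The call was also lost without BPTES replicate 1, BPTES replicate 2 or DMSO replicate 1, and kept without DMSO replicate 2.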

How the results depend on the processing

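In the BPTES comparison per class, 0 of the 9 genes' tests were called and 326 over all genes. DESeq2 called 3 and 2597, no filter on low counts 8 and 9695, and leaving out 1 library 0 to 6 and 1122 to 4525. Ctps in arterial endothelial-like and AT2-like cells was among the calls without a filter (edgeR adjusted p = 2.5e-08 and 0.0024). For the 9 genes alone a mitochondrial limit of 5% gave 2 calls, and removing 2 times as many doublets or clustering at resolution 0.5 gave 1 each. Counts over all genes under these settings are not given here. The replicate numbers were not stated to pair libraries: with them as a replicate block 5 tests of the 9 genes and 3096 of all genes were called. The 5 were Ctps in arterial endothelial-like cells (edgeR adjusted p = 0.000274) and, in general capillary endothelial-like cells, Ctps (log2 0.43, 0.0146), Ctps2 (0.0297), Ppat (0.0348) and Gfpt1 (0.045). The deviations of same-numbered libraries correlated at -0.13, and the crossed pairing gave 2 and 2945 calls. In cycling cells, no filter on low counts gave 1 call.

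For cycling against resting cells, 4 of the 9 genes were higher and 1 lower. Cycling cells at 3 or more genes gave 1 and 3 (Ctps, Ctps2 and Gfpt2 lower), thinning to 3000 UMIs 0 and 0 (few could be tested), and the nearest resting cells 0 lower. Leaving out 1 library gave 3 to 4 higher. Over all genes 2198 were higher and 1957 lower, against 989 and 760 with 2 times as many doublets removed and 588 and 444 after thinning. Without the library as a block 1205 were lower, and without 1 library 1582 to 1940 higher and 1295 to 1467 lower.

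Genes uncalled in the main comparison changed sign. Ctps (0.44) was at -0.37 with cycling cells at 3 or more genes and at -0.069 to 0.70 without 1 library. Gfpt1 (-0.18) was at 0.079 and 0.061 with 3 or more and 8 or more genes, 0.24 without the interstitial macrophage-like class and 0.055 after thinning. Gfpt2 (-0.24) was at -0.98 to 0.29 without 1 library. Nadsyn1 (-0.03) was at 0.021 with 8 or more genes, 0.17 with a mitochondrial limit of 5%, 0.26 with nearest resting cells and -0.25 to 0.25 without 1 library. The cause was not tested in any of these. The median 95% half-widths of 0.64 for Cad and Pfas, 0.76 for Gfpt2 and 0.81 for Nadsyn1 limit what the BPTES comparison could show for these genes.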
